A study of Mus musculus with 6 samples.

Results

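Genes of antigen presentation by MHC class II (H2-Aa, H2-Ab1, H2-Eb1 and Cd74) and genes of macrophages (Mpeg1, Csf1r, Cd14, Cd68 and Lyz2) were followed in mouse uterus over the first 24 h after progesterone. They were read from every probe set whose platform annotation named 1 of these 9 genes and no other. This gave 13 probe sets of 10833 with a single gene symbol, 4 for class II and 9 for macrophage genes, so the members were 9 of 8251 genes. The mice were ovariectomized 129/SvImJ wildtype females aged 10 to 16 weeks, so all groups lacked ovaries. At 14 days after surgery they were either killed uninjected, called 0 h, or given 0.2 mg progesterone under the skin in 0.1 mL sesame oil and killed 6, 12, 15, 18 or 24 h later. Each time was 1 Affymetrix array of RNA from 8 uterine horns of 4 mice pooled, which gave 6 arrays without replicates and sets a limit to what any value can show. An array of mice given oil alone was not analysed here, and the single 0 h array is the reference for all differences.

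MHC class II molecules are pairs of an alpha and a beta chain that show peptides from engulfed proteins to CD4+ T cells. They are assembled in the endoplasmic reticulum around the invariant chain, which holds the groove closed until it is cut away in endosomes. In the uterus class II is carried mainly by macrophages and dendritic cells, and macrophages are among the most frequent leukocytes of the myometrium and the stroma. In whole tissue, fewer cells of a type and less RNA per cell cannot be told apart.

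Transcription of class II genes depends on a promoter module in which the X box, bound by RFX, lies upstream of the Y box, bound by NF-Y, with the coactivator CIITA recruited to both. The promoters of the alpha chain H2-Aa and the beta chain H2-Eb1, neighbours on chromosome 17, are shown. Of the members, these genes had the largest mean differences from 0 h after progesterone. The capitals mark the X box core GCAAC and the Y box sequence CTGATTGG, and the letters are those of RefSeq on build GRCm38.p6, from a reference mouse strain and not from the mice studied.
H2-Aa, chr17:34287855-34287954, minus strand: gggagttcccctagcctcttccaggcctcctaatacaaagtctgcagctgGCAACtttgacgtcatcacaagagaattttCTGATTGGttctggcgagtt
H2-Eb1, chr17:34305725-34305824, plus strand: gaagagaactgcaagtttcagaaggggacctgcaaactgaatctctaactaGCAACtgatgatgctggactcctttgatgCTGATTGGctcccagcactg
The core GCAAC began 81 bases before the start of H2-Aa and 91 bases before that of H2-Eb1, and 25 and 24 bases lay between it and the Y box. Searched on both strands, with no overlap between the matches, GCAAC stood in 35.2% of 32851 promoter windows of 300 bases and CTGATTGG in 4.1%. Both in this order with 15 to 35 bases between them stood in 0.0913%. Windows for 5 of the 9 genes were used, without those of H2-Ab1, Cd74, Csf1r and Cd14, so class II is represented by H2-Aa and H2-Eb1 alone. The windows of Mpeg1, Cd68 and Lyz2 held no CTGATTGG. GCAAC stood on the reverse strand in those of Mpeg1 and Cd68, and not in that of Lyz2. The sequence GAGGAA, a core of PU.1 sites, was also searched and stood in 28.3% of windows, among these 5 in that of Cd68. These matches describe letters in a window and do not show binding.

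Class II genes were lower on all 5 progesterone arrays than on the 0 h array. H2-Aa, the alpha chain of I-A, had log2 values of 10.46 at 0 h and 10.01, 9.57, 9.73, 9.65 and 9.78 at 6, 12, 15, 18 and 24 h. On the linear scale this was 1404.4 at 0 h and 761.9 at 12 h, and the progesterone arrays lay 26.7% to 45.8% below 0 h. H2-Ab1, the beta chain of I-A, stood at 9.27 at 0 h and at 8.77, 8.62, 8.72, 8.64 and 8.75 at the later times. The 0 h array was the highest in both, and the 5 progesterone arrays of H2-Ab1 lay within 8.62 to 8.77.

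H2-Eb1, the beta chain of I-E, read 10.25 at 0 h, then 9.72, 9.39, 9.54, 9.39 and 9.57, which was 30.8% to 45.1% below 0 h on the linear scale. Cd74, the invariant chain, read 11.19 at 0 h, then 10.96, 10.62, 10.82, 10.86 and 10.86, or 14.8% to 32.9% lower. All 4 genes shared an order: highest at 0 h, second highest at 6 h and lowest at 12 h, although H2-Eb1 rounded to 9.39 at both 12 and 18 h. That order was found in 1.16% of 7672 probe sets analysed at all times. The 3 chain genes differed from 0 h by more than Cd74 did at every time. H2-Aa lay a further -0.22 to -0.47 from its 0 h value than Cd74 did, H2-Eb1 a further -0.29 to -0.53 and H2-Ab1 a further -0.08 to -0.30.

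**Figure D1:**
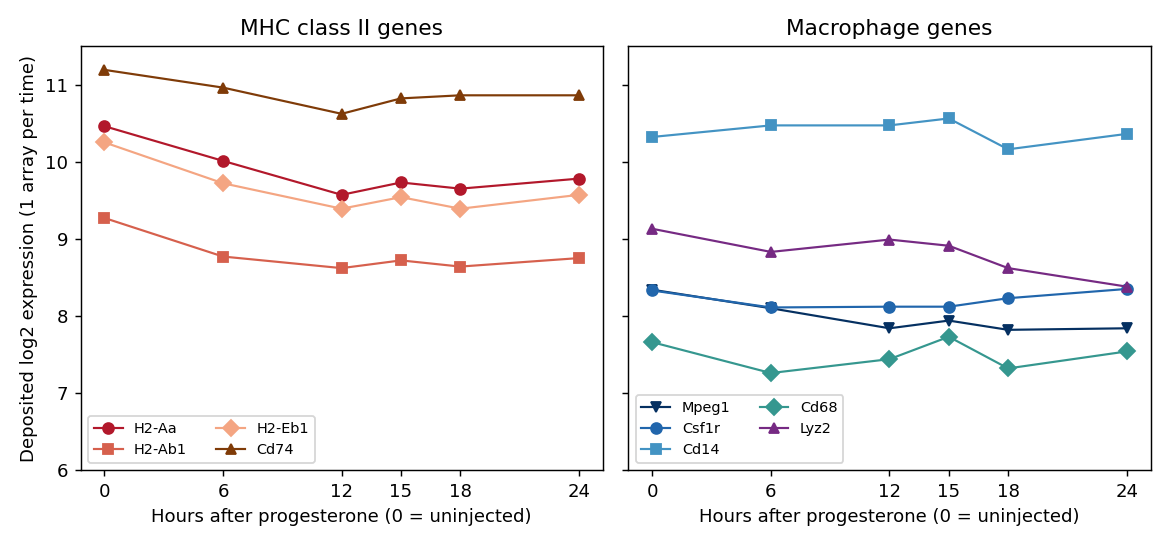
Deposited log2 expression (vertical axis) of the 4 class II genes, left, and the 5 macrophage genes, right, by hours after progesterone (horizontal axis), with 1 point per array and 1 array per time. Each class II line is highest at 0 h and lowest at 12 h, while the macrophage lines take different courses; heights of different genes are not comparable, since probe sets differ in brightness.

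The macrophage genes took no common course. Mpeg1, which encodes the pore-forming protein perforin-2, had log2 values of 8.34 at 0 h and 8.10, 7.84, 7.94, 7.82 and 7.84 at 6, 12, 15, 18 and 24 h. It was highest at 0 h and next highest at 6 h, like the class II genes, but lowest at 18 h. Lyz2, the lysozyme of myeloid cells, read 9.13 at 0 h, then 8.83, 8.99, 8.91, 8.62 and 8.38. Its lowest value was at 24 h, 40.4% below 0 h on the linear scale, where class II genes had already passed their lowest point. A brighter probe set, annotated to both mouse lysozyme genes and so no member, read 9.83 at 0 h and 9.60, 9.45, 9.66, 9.05 and 9.09 later. It too was lowest at the last 2 times.

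Csf1r, the receptor for the growth factor on which most macrophages depend, read 8.33 at 0 h, then 8.11, 8.12, 8.12, 8.23 and 8.35. It was lowest at 6 h and back at its 0 h value at 24 h. Cd68, a glycoprotein of macrophage lysosomes, read 7.66 at 0 h, then 7.26, 7.44, 7.73, 7.32 and 7.54, with its highest value at 15 h. Cd14, the co-receptor for bacterial lipopolysaccharide, read 10.32 at 0 h, then 10.47, 10.47, 10.56, 10.16 and 10.36. For Csf1r, Cd68 and Cd14 the 0 h value lay within the range of the 5 progesterone arrays. The other 4 probe sets, a second one each for Mpeg1, Csf1r, Cd68 and Lyz2, never reached the floor of 6.60 set for weak signals. Those of Mpeg1, Cd68 and Lyz2 lay at the table's lower limit of 5.39 on all 6 arrays. They gave no difference, so Mpeg1, Csf1r, Cd68 and Lyz2 rest on 1 probe set each.

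Against 0 h, 4 of 4 class II genes and 2 of 5 macrophage genes, Mpeg1 and Lyz2, were lower at all 5 times, as were 27.2% of all probe sets analysed, while 20.4% were higher at all 5. None of the 9 genes was 2-fold from 0 h at any time, against 5.87% of all. At 12 h the difference of H2-Aa was -0.88 and that of H2-Eb1 -0.86, and 2.31% and 2.47% of analysed probe sets were as low or lower. At the same time Mpeg1 stood at -0.50, Csf1r at -0.21, Cd68 at -0.21, Lyz2 at -0.13 and Cd14 at 0.15, with 7.80%, 21.5%, 21.2%, 28.7% and 66.0% as low or lower.

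The progesterone arrays as a group were compared with 0 h by limma, fitted on all 7724 probe sets that could be tested, where the spread is that between the 5 times. No member passed an adjusted p of 0.05, against 2.69% of all probe sets in either direction, 1.80% that fell and 0.893% that rose. H2-Eb1 was lower by a mean of -0.73 ± 0.15 (SE; adjusted p = 0.052), H2-Ab1 by -0.57 ± 0.13 (adjusted p = 0.058) and H2-Aa by -0.71 ± 0.17 (adjusted p = 0.071). By p-value H2-Eb1 came 147th among probe sets with a negative difference, of which 139 passed. Cd74 differed by -0.37 ± 0.14 (adjusted p = 0.21). Of the macrophage genes, Mpeg1 differed by -0.43 ± 0.15 (adjusted p = 0.17), Lyz2 by -0.38 ± 0.22 (adjusted p = 0.41) and Cd68 by -0.20 ± 0.18 (adjusted p = 0.63). Csf1r differed by -0.14 ± 0.15 (adjusted p = 0.67) and Cd14 by 0.08 ± 0.16 (adjusted p = 0.84). Before adjustment the 4 class II genes and Mpeg1 had p under 0.05 with a negative difference, as did 10.9% of all probe sets, and 8.09% had one with a positive difference.

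The 6 h array decided the class II call. Without it H2-Aa, H2-Eb1 and H2-Ab1 fell (adjusted p = 0.021, 0.022 and 0.033), by -0.77, -0.78 and -0.59, while 4.33% of all probe sets then fell. Cd74 and Mpeg1 did not pass without any array, with adjusted p of at least 0.10 and 0.055 over all settings run. H2-Ab1 also passed with no filter on expression (adjusted p = 0.036; 1.63% of all fell) and with no intensity trend (adjusted p = 0.049; 1.81%). The fit assumes that the lone 0 h array varies like the others, and an exact permutation test of 1 array against 5 could not give a p below 0.167.

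**Figure D2:**
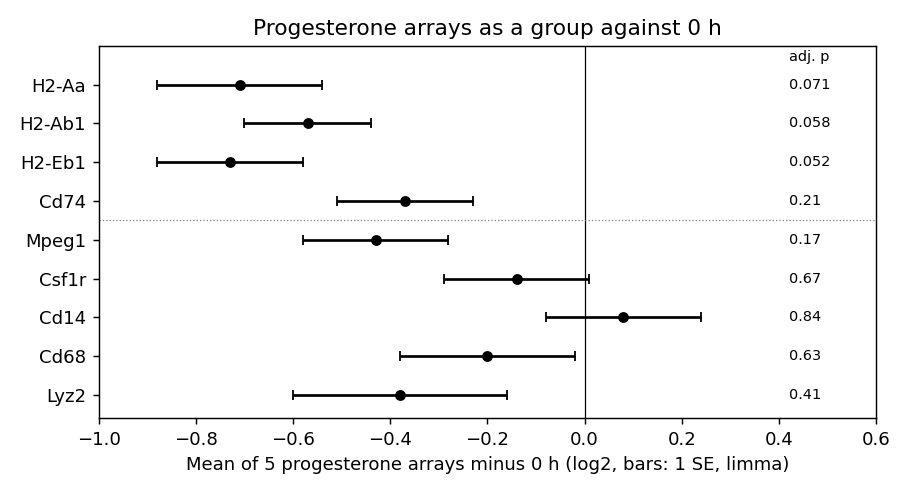
Mean log2 difference of the 5 progesterone arrays from the 0 h array for each of the 9 genes (horizontal axis; points, with bars of 1 SE from limma), with the adjusted p at the right. The 3 class II chain genes lie between -0.73 and -0.57 and the macrophage genes between -0.43 and 0.08. Cd74, also of class II, lies at -0.37, within the range of the macrophage genes. No adjusted p is under 0.05.

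Whether class II genes were further below 0 h than macrophage genes was read from the mean difference over each set, with 1 probe set per gene. At 6 h the class II mean was -0.43 and the macrophage mean -0.20, a gap of -0.23. The gap was -0.56 at 12 h, from means of -0.74 and -0.18, and -0.49 at 15 h, from means of -0.59 and -0.10. At 18 h the means were -0.66 and -0.32, and at 24 h -0.55 and -0.26, with gaps of -0.33 and -0.29. Class II was thus the lower set at every time, with a mean gap of -0.38 ± 0.14 (SD over 5 times). Over the times the class II mean was -0.59 ± 0.12 and the macrophage mean -0.21 ± 0.08 (SD, n = 5 arrays that share 1 reference).

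Single genes of the sets overlapped at most times. Only at 12 h did all 4 class II genes lie below every macrophage gene, from -0.88 to -0.57 against -0.50 to 0.15. At 6, 15 and 18 h 3 of 4 did, the exception being Cd74. At 24 h none did, because Lyz2 at -0.75 lay below H2-Aa and H2-Eb1, both at -0.68. With any 1 of the 9 genes left out the mean gap lay between -0.46, without Cd74, and -0.31, without Cd14. Since the genes were chosen with earlier results of these arrays known, the gap is a description with no p-value.

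**Figure D3:**
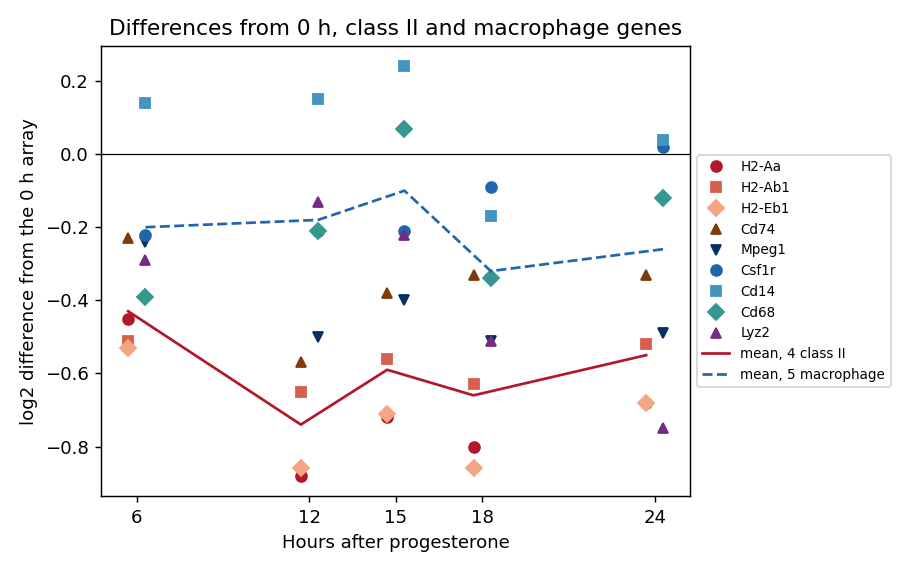
Log2 difference from the 0 h array (vertical axis) of each gene at 6 to 24 h after progesterone (horizontal axis); the solid line joins the means of the 4 class II genes and the dashed line those of the 5 macrophage genes. The solid line lies below the dashed one at all 5 times, and is furthest from it at 12 h, by 0.56.

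The course among the progesterone arrays alone does not use the 0 h array. A limma fit of a linear trend over the 5 arrays gave class II genes slopes near 0: H2-Ab1 -0.01 ± 0.20, Cd74 -0.02 ± 0.22, H2-Eb1 -0.18 ± 0.24 and H2-Aa -0.24 ± 0.25 per 24 h (SE; adjusted p between 0.64 and 0.99). Lyz2 had -0.70 ± 0.27 (adjusted p = 0.19), but -0.33 without the 24 h array and -1.29 without that of 6 h. Mpeg1 had -0.31 ± 0.21 (-0.06 without 6 h) and Cd14 -0.26 ± 0.24, while Csf1r had 0.33 ± 0.20 and Cd68 0.28 ± 0.28 (adjusted p between 0.39 and 0.62). None of the 9 passed, against 1.90% of all probe sets (0.880% fell, 1.02% rose), and 1, Lyz2, had an unadjusted p under 0.05, against 9.87% of all with a negative slope and 11.6% with a positive one. Without the 6 h array the 4 class II slopes were positive, between 0.20 and 0.42. Differences between slopes were not tested. Over all 6 arrays, 0 h included, none of the 9 passed either, against 0.31% of all. Lyz2, Mpeg1, H2-Aa and H2-Eb1 then had slopes of -0.65, -0.50, -0.70 and -0.68 per 24 h with an unadjusted p under 0.05, as did 7.81% of all with a negative slope, against 8.41% with a positive one (limma, adjusted p = 0.17, 0.21, 0.21 and 0.23).

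Other genes of the class II pathway were read from a list. Of 22 listed, 19 had a probe set with their symbol alone and 16 were analysed. None passed the group fit in either direction, and 8 of 16 were lower at all 5 times, against 27.2% of all probe sets, with medians of -0.12, -0.10, -0.19, -0.29 and -0.16 at 6, 12, 15, 18 and 24 h. Over all analysed probe sets these medians were -0.05, 0.03, 0.03, -0.04 and 0. H2-DMb1, a subunit of the peptide exchange factor, read 8.04 at 0 h and 7.59 to 7.85 later (mean difference -0.36 ± 0.14, limma adjusted p = 0.22). Ifi30, the lysosomal thiol reductase that unfolds antigens, stood at -0.06 at 6 h and at -0.65 at 12 h, where H2-Ab1 too stood at -0.65 (adjusted p = 0.37). Rfxank, a subunit of RFX, stood between -0.45 and -0.22 (adjusted p = 0.25).

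Ciita, the coactivator itself, read 6.69 at 0 h and 6.63 to 6.92 after progesterone, close to the floor of 6.60, so a difference of the size seen in the chain genes could not be measured below it. Ctss, the protease that trims the invariant chain, stood at -0.72 at 6 h, below the 3 chain genes at that time, and at -0.29 at 24 h. The values of H2-Ea, the alpha chain that pairs with H2-Eb1, and of H2-Eb2 lay at the lower limit on all 6 arrays. Ciita, Ctss, H2-Ea and H2-Eb2 were singled out after their values were seen.

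MHC class I genes, which show peptides from inside the cell on nearly all cell types, and genes of the interferon gamma axis, the main inducer of class II, gave no call against 0 h. Of 10 class I genes analysed 8 were lower at all 5 times, against 27.2% of all probe sets, with medians between -0.32 and -0.12. Among these 8, H2-K1 and H2-D1 had much the same differences, -0.27 to -0.10 and -0.26 to -0.12. Whether their probe sets tell these genes apart was not tested. Psmb9, a subunit of the immunoproteasome, read 8.07 at 0 h, then 6.79, 6.82, 7.15, 7.29 and 7.66. It was lowest at 6 h and highest at 24 h among the progesterone arrays, where it rose by 1.24 ± 0.22 per 24 h (limma adjusted p = 0.037). This call was lost without any 1 of the 5 arrays, with no filter, with median centring and with a lower floor, at the 20th percentile (adjusted p up to 0.30). Pdia3, a disulfide isomerase of the class I loading complex, was higher at 12 h by 1.21. Of 7 interferon axis genes 4 were lower at all 5 times and 3 higher, against 27.2% and 20.4% of all. Irf1, a transcription factor that interferon gamma induces, stood between -0.56 and -0.26, and Gbp2, a guanylate-binding protein, between -0.64 and -0.15. Socs1, an inhibitor of the receptor's signal, stood between 0.06 and 0.38, and Ifng, Cxcl9 and Cxcl10 lay at the lower limit throughout.

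The label of the macrophage set was checked against other macrophage genes. Of 49 listed, 42 had a probe set and 27 were analysed. Defining markers were among the rest: Adgre1, which encodes F4/80, and Itgam, which encodes CD11b, lay at the lower limit on all 6 arrays, as did Fcgr3, Fcgr2b, Fcer1g and Siglec1. Of 26 with a difference at every time 12 were lower at all 5, against 27.2% of all probe sets. The number higher at all 5 was 1, against 20.4% of all. Medians were -0.22, -0.22, -0.20, -0.19 and -0.06. None passed against 0 h. Cebpb, a transcription factor of myeloid and of many other cells, was the only one to pass a trend: it fell by 2.0 ± 0.33 per 24 h among the progesterone arrays (limma adjusted p = 0.035). Its highest value was 8.90, at 6 h, and its lowest 7.39, at 24 h. The call was lost without the 6, 12, 15 or 18 h array, with no filter and with a higher floor, at the 60th percentile (adjusted p up to 0.33).

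Some of these genes resembled class II in their distance from 0 h, and others did not; those named here were chosen after their values were seen. Ccr2, the chemokine receptor of monocytes, read 8.20 at 0 h, then 7.55, 7.25, 7.43, 7.5 and 7.80 (mean difference -0.69 ± 0.19, limma adjusted p = 0.10). Laptm5, a lysosomal protein of leukocytes, stood between -0.54 and -0.42 (adjusted p = 0.088). The complement subunits C1qa, C1qb and C1qc, made by tissue macrophages, were lower at 6 h by -0.33, -0.62 and -0.31 and higher at 24 h by 0.18, 0.10 and 0.17. The mannose receptor Mrc1 read 6.60 at 0 h and 7.0 at 24 h. Ctsd went the other way from class II, as the only 1 of the 26 that was higher at all 5 times. It was higher by 0.39 to 0.78 (mean difference 0.62 ± 0.14) and did not pass.

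Genes of other cells that can carry class II were measured on the same arrays. Of 8 dendritic cell genes analysed none passed, and medians lay between -0.14 and 0.07. Cd83, a surface protein of mature dendritic and other activated cells, read 8.10 at 0 h, then 6.96, 7.30, 7.44, 7.61 and 7.65. It was lowest at 6 h, by -1.14. Its second probe set was lowest at 12 h, by -1.03. Ccr7 lay at the lower limit and Itgax, which encodes CD11c, did not qualify for analysis. The linear levels of all 14 listed genes with a probe set, weak ones included, summed to 1723 at 0 h and 1503 to 1707 later, a sum in which bright probe sets weigh most.

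Of 7 B cell genes 4 were lower at all 5 times, against 27.2% of all probe sets, with medians between -0.47 and -0.17. The summed level of all 14 B cell genes with a probe set was 5257 at 0 h and 3742 to 4513 later. Jchain, the joining chain of secreted immunoglobulin, stood between -0.98 and -0.55 (limma adjusted p = 0.068), and Ighm, the mu heavy chain, between -0.56 and -0.15 on its brightest probe set. The 6 other Ighm probe sets analysed had median differences from -0.59 to 0.25, and 1 of them stood between 0 and 0.41. Blnk, an adaptor of the B cell receptor, stood between -0.69 and -0.50 on its brighter probe set (adjusted p = 0.075), and on the other it fell, with differences between -1.60 and -1.47 (adjusted p = 0.00057). Cd79b, Cd22, Cd72 and Cr2 lay at the lower limit. T cell genes had medians between -0.19 and -0.05 over 5 genes, with Thy1, which stroma also makes, at -0.82 to -0.28, Cd6 at -0.67 to -0.22 and Cd4 at -0.17 to 0.03, and Cd3g at the lower limit. The summed level of all 13 T cell genes with a probe set was 4014 at 0 h and 3287 to 3744 later. The 2 natural killer cell genes analysed, Il2rb and Prf1, stood between -0.36 and 0.20. Neutrophil genes had S100a9 at the lower limit, and their Lcn2, which epithelium makes too, read 7.63 at 0 h, then 8.77, 7.87, 6.87, 5.84 and 5.85. The last 2 values lay below the floor of 6.60, so only a bound of -1.03 was had there and no slope is given. Of 4 mast cell and eosinophil genes analysed, Gata2, which stroma also makes, stood between 0.34 and 1.02. The part of any of these cells in the class II differences was not tested.

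Structural markers of the uterus were read on the same arrays. Epithelial genes had medians between -0.60 and -0.41, 7 of 8 were lower at all 5 times, against 27.2% of all probe sets, and the summed level of the 8 went from 7349 at 0 h to 4425 to 5142. Epcam and Krt18, a surface and a keratin gene of epithelium, fell by -1.12 ± 0.14 and -1.03 ± 0.16 (limma adjusted p = 0.01 and 0.024), and Krt7 fell over the 6 arrays (adjusted p = 0.046). Epcam passed in every setting that tested it, Krt18 was lost without the 12, 15, 18 or 24 h array (adjusted p up to 0.097) and Krt7 without that of 6, 12, 15 or 18 h (up to 0.25). Cldn5 of endothelium fell too, by -1.29 ± 0.16 (adjusted p = 0.01, and 0.058 without the 12 h array), within a list whose medians lay between -0.22 and 0.10. Of 5 stromal genes analysed, with medians of -0.02, 0.38, 0.78, 1.12 and 1.08, the collagens Col1a1 and Col3a1 rose over the 6 arrays by 1.88 ± 0.18 and 1.22 ± 0.18 per 24 h (adjusted p = 0.019 and 0.048). Both were lost without the 6, 12, 15 or 18 h array (adjusted p up to 0.18 and 0.27). With quantile normalization the calls of Krt7 and Col3a1 were lost as well. That of Krt7 was also lost with the floor at the 60th percentile, and that of Col3a1 with no intensity trend. Col1a2 rose by 2.24 ± 0.25 per 24 h among the progesterone arrays (adjusted p = 0.016, lost without 6, 12 or 18 h), but its second probe set stood between -0.18 and 0.09. Dcn, a matrix proteoglycan, stood between -0.40 and -0.02, and the receptor gene Pdgfra between -0.07 and 0.13. The smooth muscle genes Des, Cnn1 and Myh11 did not pass, with median differences of 0.57, 0.62 and 0.28. Bacterial and phage RNA is added to each sample as a spike-in control, and 9 probe sets for it lay above the floor on all arrays. Of these 6 were lower than at 0 h at all 5 times, with differences between -0.38 and 0.15 and medians of -0.22 to -0.10 over the times. Of 3 control probe sets for the opposite strand 2 were lower at all 5 times. The part of these shifts in the class II differences was not tested.

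**Figure D4:**
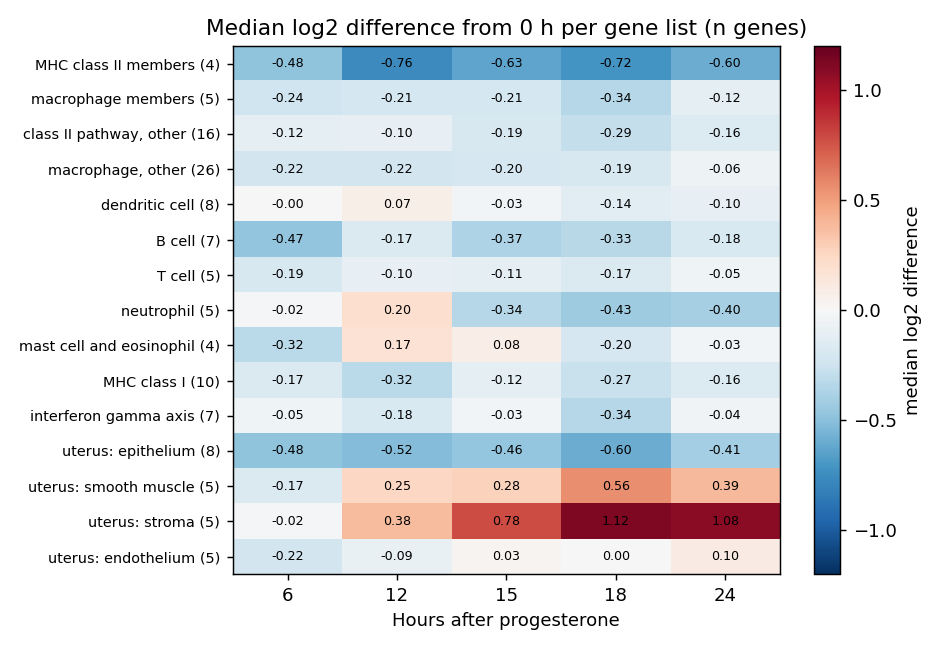
Median log2 difference from 0 h (colour and printed value) of each gene list (rows, with the number of genes) at each time (columns, hours after progesterone); lists with fewer than 4 genes are left out. The class II members run from -0.76 to -0.48 and epithelial genes from -0.60 to -0.41, while the macrophage members run from -0.34 to -0.12.

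Genes with the course most like the mean class II profile were sought among 469 named probe sets that varied by at least 2-fold over the 6 arrays. The likeness was Pearson's r over the 6 arrays, on which the lone 0 h array weighs heavily. The closest was Use1, a SNARE protein of transport to the endoplasmic reticulum, with r = 0.993, then Ngef with 0.990, and the thioredoxin domain protein Txndc16 with 0.989. Hsd17b11, a dehydrogenase of lipid droplets, had 0.988, Sqstm1, the autophagy receptor p62, 0.987, and Arhgef3 0.983. Use1 read 9.88 at 0 h, then 9.13, 8.40, 8.69, 8.61 and 8.91. The mean differences of these genes from 0 h lay between -1.13, for Use1, and -0.86, for Sqstm1. Genes picked for likeness to a profile highest at 0 h tend to differ from 0 h. The group fit on the same arrays is therefore no test of them, and its calls are not given. The mean macrophage profile had looser neighbours, led by Nupr1, a stress-induced nuclear protein, with r = 0.941, and the myelin gene Mbp with 0.898, whose second probe set had a median difference of -0.04. Next were Ddit4, an inhibitor of mTORC1, with 0.884, the chemokine Cx3cl1 with 0.843 (second probe set -0.08), Clec3b, which encodes tetranectin, with 0.839, and Bcl2l11, which promotes apoptosis, with 0.837. The mean differences of the macrophage neighbours lay between -1.23, for Mbp, and -0.71, for Cx3cl1. Both searches took only probe sets that varied by at least 2-fold, so such distances from 0 h are largely built in. They do not compare the class II and macrophage sets.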

How the data were processed

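RNA of 6 pooled uterus samples was measured on 1 Affymetrix array each, and groups and hours were taken from the sample titles. The authors deposited 1 log2 value per probe set and array. Base 2 was inferred, since 99.76% of those under 2000 had 4 decimals when raised from base 2 and 6.42% from base e. For software, background correction and normalization: not given in the sources used here. All columns share a lower limit of 5.39.

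Of 12487 probe sets 65 controls were set aside. Trimmed means (2%) differed by -4.10% to 3.42% from their median, within the 5% set for using values as deposited. Values under the 40th percentile (6.60) were raised to it, and the 7731 probe sets above it on at least 2 arrays were analysed; differences use these floored values. limma 3.58.1 in R 4.3.3 (lmFit, eBayes with intensity trend) compared the 5 progesterone arrays with 0 h and fitted hours as a number, with Benjamini-Hochberg adjustment over all tested. Only genes with an adjusted p under 0.05 are said to have risen or fallen. The fits were tested on simulated data.

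Members and lists were chosen with earlier results of these data known. All member probe sets were described. From each other list came up to 6 genes with a call or a 2-fold difference, else up to 3 by median difference, with the brightest probe set per gene. Of 12422 probe sets, 10833 had 1 symbol, 396 several and 1193 none. Alternatives were the floor, the filter, scaling, the trend and each array left out.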

Additional observations from a re-analysis of the deposited data

How the results depend on the processing

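With 1 array per time and 1 shared reference, nothing here separates progesterone from any other difference of the 0 h array. The gap between class II and macrophage genes was -0.39 with quantile normalization and -0.38 with median centring. With each progesterone array left out it lay between -0.42 and -0.34. The 9 probe sets used lay above 6.60 on all 6 arrays, so a lower floor, no floor or no filter could not change the gap. The floor at the 60th percentile left out Cd68 and gave -0.38. It was -0.51 over all 13 probe sets with no floor, an alternative chosen after seeing the data. The 4 probe sets this added were all of macrophage genes and below the floor of 6.60. Those of Mpeg1, Cd68 and Lyz2 had no difference at any time. They could move only the macrophage mean, so the wider gap adds no support. In the group fit 0 members passed, against 1 (H2-Ab1) with no filter and with no intensity trend, and 0 to 3 with an array left out. The class II chain genes had adjusted p of 0.021 to 0.18 over all settings. The count of all probe sets called went from 208 to between 42 and 590 with an array left out.

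The trend over 6 arrays called 24 probe sets, 53 with no floor, 0 with no filter, 10 with quantile normalization and 0 to 52 with an array left out. The trend over 5 arrays called 147, 71 with the floor at the 60th percentile, 285 with no floor, 0 with no filter, 243 with quantile normalization and 0 to 36 with an array left out. Some slopes changed sign with an array left out. Over 6 arrays Csf1r (0.05) ranged from -0.14 to 0.07, Cd14 (-0.06) from -0.10 to 0.04 and Cd68 (-0.02) from -0.16 to 0.06. Over 5 arrays H2-Aa ranged from -0.65 to 0.33, H2-Ab1 from -0.20 to 0.20, H2-Eb1 from -0.58 to 0.28, Cd74 from -0.18 to 0.42 and Cd68 from -0.02 to 0.38. For the 4 class II genes the array left out at the upper end was that of 6 h and at the lower end that of 24 h. With no filter the calls named for Krt18, Krt7, Col1a1, Col3a1 and Col1a2 were lost too. The cause was not tested. Weak signal limits Ciita and the 4 probe sets under the floor. No paired analysis was possible because each group is 1 array and the labels give no replicate numbers.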
